A study of Bos taurus with 8 samples.

Results

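Genes that make, take up, activate, esterify, coat, mobilise and burn fatty acids were examined in bovine preadipocyte clones. They comprise 48 listed genes in 7 steps of fatty acid and triglyceride handling, taken by gene symbol from a list. Of the 48, 45 had a row in the count table and all 45 were tested, among 18339 genes tested in all. *LPL*, which releases fatty acids from circulating lipoproteins, *MOGAT1*, which acylates monoacylglycerol, and *MGLL*, which splits monoacylglycerol, were not analysed here.

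RNA-seq was performed on 8 clones, 4 grown from the stromal vascular fraction (SVF, the non-adipocyte cells) of intramuscular fat (IMF) and 4 from the SVF of subcutaneous fat (SF). The donors were adult Angus-cross steers, and the labels give no treatment or genotype that differed between the groups. Each clone was expanded in culture from 1 cell, and clones were selected by the study for proliferation, adipogenic capacity and fibroblast-like shape, so a clone represents a chosen cell and not its tissue. According to the study's methods, RNA was taken from growing clones before differentiation, whereas the deposited design text places adipogenic induction before sequencing, and the sources also differ in the number of steers. Within a depot each clone came from its own, separately isolated SVF sample. The study names fewer steers than there are clones, so some IMF and SF clones must share a steer, but which ones is not stated.

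Fatty acids are built in the cytosol from acetyl-CoA by citrate lyase, acetyl-CoA carboxylase and fatty acid synthase, and are then elongated and desaturated. They may also enter from outside, through receptors and transporters at the plasma membrane, and are carried through the cytosol by fatty acid-binding proteins. After activation to acyl-CoA they are either esterified stepwise to triglyceride and stored in lipid droplets coated by perilipins, or carried into mitochondria by carnitine palmitoyltransferases and shortened by beta-oxidation. In cattle, intramuscular fat is the marbling of beef, and both desaturation and fatty acid-binding proteins have long been studied for it.

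The clones had 19654917 to 29308882 reads counted on named genes, and 3 counts corresponded to between 0.0981 and 0.165 CPM, the count scaled to a common library size with TMM factors. The clones of a group differed from each other by far more than counting error. Of the markers of mature adipocytes, 7 of 14 were tested, *PPARG* was lower in the IMF clones (1.23 ± 0.244 against 3.13 ± 0.538 CPM, SD, n = 4 each, adjusted p = 0.00365), and *ADIPOR2* and *SLC2A4* had the highest means. The summed level of these markers was 58.4 to 102 CPM in IMF and 71.7 to 110 CPM in SF clones. The defining adipokines *ADIPOQ*, *LEP* and *RETN* were not analysed here. Of the 12 stromal progenitor markers, 2 (*COL1A1* and *THY1*) were lower in the IMF clones past both thresholds (against 4.04% of all genes tested). By adjusted p alone 5 were lower and 1 (*PDGFRA*, log2 0.49, adjusted p = 0.0214) was higher (against 11.4% and 14.4% of all genes). The median log2 fold change of the 12 was −0.16. *THY1* lost its call by adjusted p with limma-voom (0.0524), with total counts alone (0.0516), and without IMF1 to IMF4 in turn or SF2 (0.0698, 0.0714, 0.0820, 0.0812 and 0.0706), and without SF1 its log2 fold change was −0.88. *PDGFRA* lost its call without IMF1, IMF2 or IMF3 (0.0523, 0.0527 and 0.0654). The collagens *COL1A1* and *COL1A2* were the most abundant, at means of 12372 and 10428 CPM in IMF clones and 30089.7 and 18167 CPM in SF clones. Of 11 leukocyte genes tested, 1 (*CD14*, log2 1.48, adjusted p = 0.00260) was higher and 1 (*CD3E*) lower in the IMF clones past both thresholds (against 4.78% and 4.04% of all genes). The other 9 were neither, whereas DESeq2 and limma-voom each counted 4 lower. *PTPRC* averaged 9.68 ± 7.28 CPM in IMF and 33.3 ± 11.3 CPM in SF clones (adjusted p = 0.0518) and *CD3E* 8.92 ± 4.60 and 22.4 ± 6.88 CPM (adjusted p = 0.0415). Neither call was stable, since *CD3E* lost it without IMF1, IMF2, IMF3, SF1, SF2 or SF4 (adjusted p = 0.0615, 0.103, 0.0507, 0.0706, 0.0598 and 0.102) and *PTPRC* gained it without IMF1 or IMF2 (adjusted p = 0.0217 and 0.0370), by DESeq2 (0.00905) and by limma-voom (0.0184). The summed level of the leukocyte genes was 33.0 to 69.6 CPM in IMF and 77.1 to 127 CPM in SF clones.

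The lipid genes with the largest fitted differences between the depots were *FABP4*, *FADS2*, *FABP3*, *FABP5*, *CD36* and *SCD*, each with higher levels in the IMF preadipocyte clones. With adjusted p under 0.05 and an at least 2-fold difference, 10 of the 45 genes (22.2%) were higher and 1 (2.22%) was lower in IMF than in SF clones, where 4.78% and 4.04% of all genes tested were higher and lower. By adjusted p alone, 16 (35.6%) were higher and 2 (4.44%) lower, against 14.4% and 11.4% of all genes. In 22 genes (48.9%) the lowest IMF clone exceeded the highest SF clone and in 5 (11.1%) the highest IMF clone was under the lowest SF clone, where 18.0% and 14.1% of all genes were separated in this way. The median log2 fold change (IMF over SF) was 0.31 for the 45 genes and −0.03 for all genes tested. The genes were chosen with earlier results of these data known, so these shares describe them and do not test the list. Tests were edgeR's two-sided quasi-likelihood test with Benjamini-Hochberg adjustment over all genes. Scaling by total counts alone moved the median of all genes by 0.15 upwards, raised the share of higher genes among all genes past both thresholds from 54.2% to 66.7%, and gave 12 lipid genes higher and 1 lower. Each library is a bulk of the cells of 1 clone, so fewer cells of a state and less RNA per cell cannot be told apart.

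**Figure D1:**
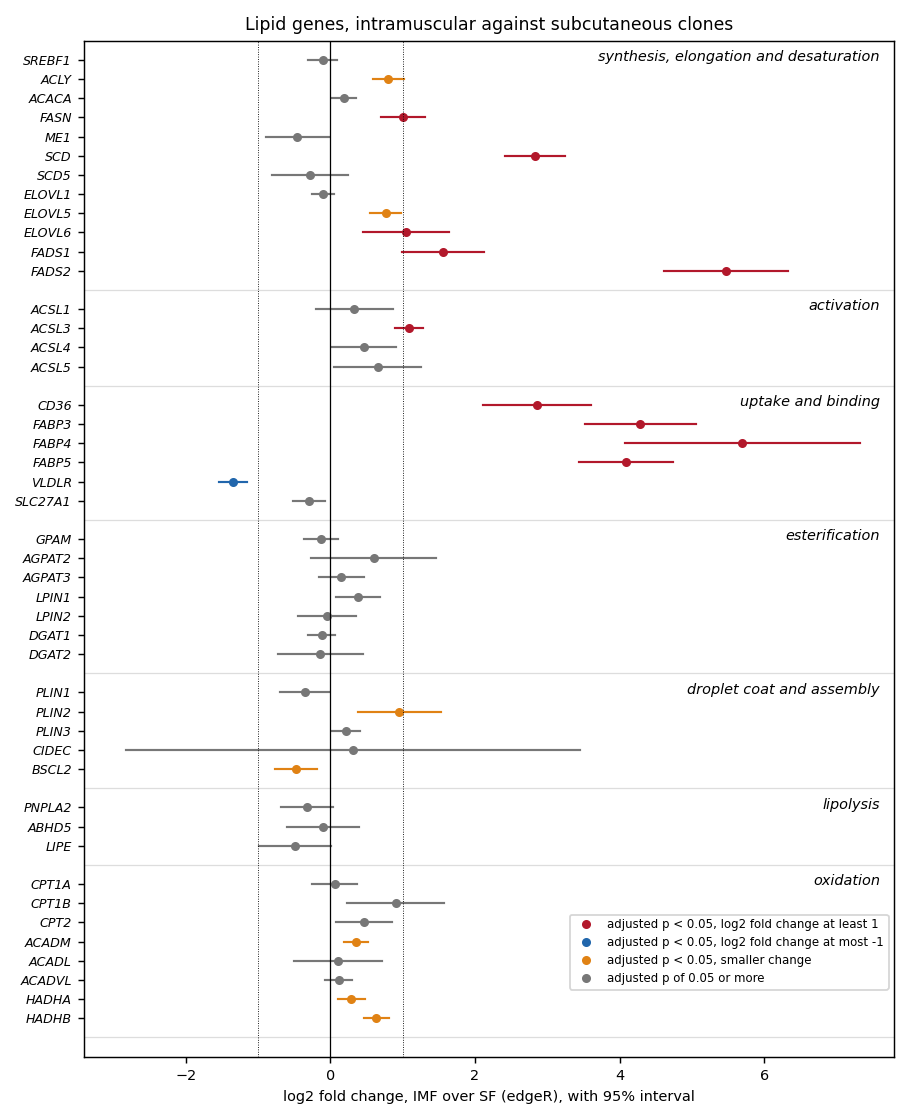
Log2 fold change (IMF over SF, horizontal axis) of each of the 45 lipid genes, grouped by step, with its 95% interval from edgeR. The genes furthest to the right are *FABP4* at 5.70, *FADS2* at 5.47, *FABP3* at 4.29 and *FABP5* at 4.09, and *VLDLR* at −1.34 is furthest to the left.

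By step, synthesis, elongation and desaturation (12 genes) had a median log2 fold change of 0.79 and uptake and binding (6 genes) one of 3.47. Activation (4 genes) had a median of 0.56, oxidation (8 genes) 0.32 and droplet coat and assembly (5 genes) 0.21. Esterification (7 genes) and lipolysis (3 genes) had medians of −0.05 and −0.32. Without SF1, the medians of activation and lipolysis were 0.37 and −0.20, and with total counts alone that of lipolysis was −0.18. The signs of the droplet coat and esterification medians were not stable, since over the 15 alternative fits they ran from −0.36 to 0.36 and from −0.08 to 0.10. In summed level, the synthesis genes reached 1042 to 1100 CPM in the IMF clones and 534 to 652 CPM in the SF clones, without overlap. The esterification genes reached 201 to 239 CPM in IMF and 204 to 245 CPM in SF clones, and these ranges overlapped almost completely.

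**Figure D2:**
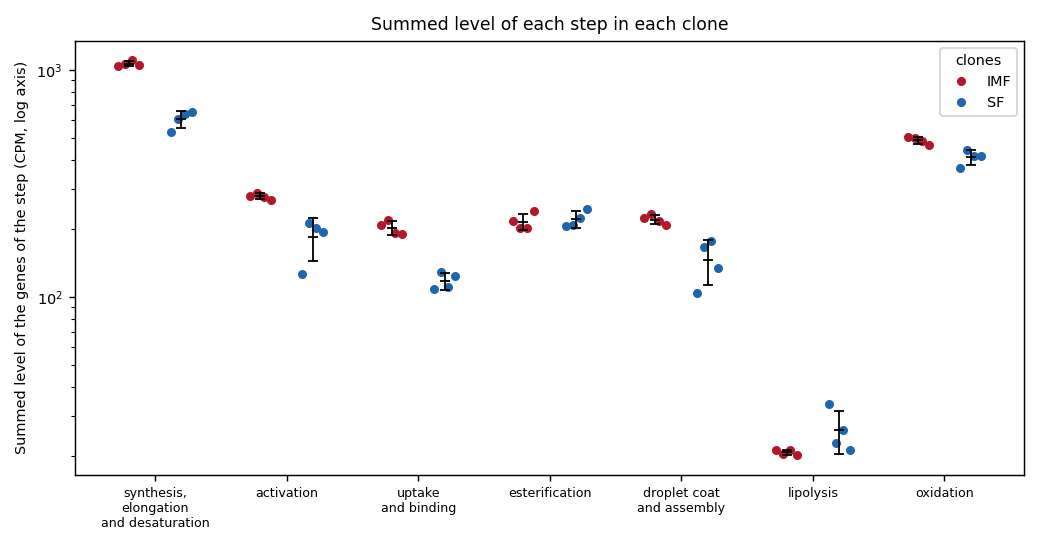
Summed level of the genes of each step (CPM, log axis) in each of the 4 IMF and 4 SF clones, 1 point per clone. The IMF clones lie above the SF clones for synthesis (1042 to 1100 against 534 to 652 CPM), activation, uptake, droplet coat and oxidation. The groups overlap for esterification. For lipolysis every SF clone lies above every IMF clone, though the nearest are close (20.1 to 21.1 against 21.2 to 33.6 CPM). *PLIN2* alone averaged 160 CPM of the mean droplet coat sum of 219 CPM in IMF clones, and 82.5 of 145 CPM in SF clones.

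Of the 12 genes of synthesis, elongation and desaturation, 7 were higher in the IMF clones by adjusted p (against 14.4% of all genes). Of these, 5 were also higher by 2-fold or more (against 4.78% of all genes). None of those past the test was lower. The largest differences were those of the desaturase genes *FADS2*, *SCD* and *FADS1*, whereas the desaturase gene *SCD5* did not pass the test. *FADS2*, the fatty acid desaturase of the entry step to long polyunsaturated fatty acids (chromosome 29, 40350542 to 40387559), stood at 76.5, 76.6, 72.9 and 72.0 CPM in IMF1 to IMF4 and at 1.23, 2.60, 0.609 and 2.37 CPM in SF1 to SF4. The SF values rest on 24, 52, 15 and 43 counts, so the gene was detected in every SF clone but at a level far under that of any IMF clone. The log2 fold change was 5.47 (SE 0.37, 95% interval 4.62 to 6.33, adjusted p = 3.56e-05), a 44.4-fold difference.

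*SCD*, stearoyl-CoA desaturase, which turns saturated into monounsaturated acyl-CoA (chromosome 26, 21263976 to 21279185), was at 161, 168, 177 and 169 CPM in IMF1 to IMF4 and at 15.6, 26.1, 29.4 and 23.6 CPM in SF1 to SF4. The lowest IMF clone was thus far above the highest SF clone, and the IMF clones lay close together. The difference was 7.11-fold (log2 2.83, SE 0.18, adjusted p = 2.76e-05). The second bovine stearoyl-CoA desaturase, *SCD5*, averaged 6.09 ± 0.863 CPM in IMF and 7.42 ± 2.28 CPM in SF clones, and its log2 fold change of −0.28 (95% interval −0.80 to 0.24) did not pass the test (adjusted p = 0.411). Of the length-scaled level (TPM) summed over both genes, *SCD5* made up 6.69% ± 0.90 in the IMF clones and 38.7% ± 12.3 in the SF clones, with a highest IMF value of 7.99% and a lowest SF value of 26.6%.

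*FADS1*, which acts after *FADS2* on the same route and is its neighbour on chromosome 29 (40244036 to 40351218), was at 40.8, 38.6, 42.3 and 38.6 CPM in IMF1 to IMF4 and at 19.5, 15.4, 7.51 and 12.3 CPM in SF1 to SF4. The groups did not overlap, and the difference was 2.94-fold (log2 1.55, SE 0.25, adjusted p = 0.00259). The annotated spans of *FADS1* and *FADS2* share 677 bases. *ELOVL6*, which elongates palmitate, was at 43.4, 42.1, 42.8 and 39.5 CPM in IMF1 to IMF4 and at 24.2, 13.0, 13.8 and 30.4 CPM in SF1 to SF4. SF1 and SF4 lay nearer to the IMF clones than SF2 and SF3 did, and the 2.07-fold difference passed the test (log2 1.05, SE 0.26, adjusted p = 0.0200) but not without IMF3 (adjusted p = 0.0557). *ELOVL5*, which elongates polyunsaturated acyl-CoA and had the highest length-scaled level of the step (61.0 TPM in IMF, 35.6 TPM in SF), was 1.70-fold higher in the IMF clones, at 101 ± 2.36 against 59.6 ± 7.14 CPM (log2 0.77, adjusted p = 0.000686).

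Of the enzymes that build palmitate, *FASN*, fatty acid synthase (chromosome 19, 50776231 to 50794939), was at 232, 243, 262 and 247 CPM in IMF1 to IMF4 and at 102, 104, 142 and 142 CPM in SF1 to SF4. Every IMF clone was higher than every SF clone, and SF1 and SF2 were lower than SF3 and SF4. Its log2 fold change of 1.00 (SE 0.13, 95% interval 0.70 to 1.31, adjusted p = 0.00102) lay on the fold threshold. It fell short of that threshold, at 0.925 to 0.997, in 8 of 15 alternative fits, while its adjusted p stayed at or below 0.00552 in all 15. *ACLY*, ATP citrate lyase, which supplies cytosolic acetyl-CoA, was at 118, 120.1, 126 and 117 CPM in IMF1 to IMF4 and at 69.8, 66.9, 59.5 and 79.7 CPM in SF1 to SF4. This 1.75-fold difference was larger than the spread between clones (log2 0.80, SE 0.10, adjusted p = 0.000609).

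The other genes of this step did not pass the test by edgeR with TMM scaling and all clones. *ACACA*, acetyl-CoA carboxylase, was 50.1 ± 1.56 CPM in IMF and 44.0 ± 3.52 CPM in SF clones, and although the groups did not overlap the adjusted p was 0.1001 (0.0344 with total counts alone). *ME1*, malic enzyme, a source of NADPH, was 57.3 ± 2.85 CPM in IMF and 78.6 ± 21.3 CPM in SF clones (log2 −0.46, 95% interval −0.90 to −0.02, adjusted p = 0.119). SF1, at 48.1 CPM, lay below all IMF clones and the other SF clones lay above them, and without SF1 *ME1* passed by adjusted p (log2 −0.63, adjusted p = 0.00108). *SREBF1*, whose product switches on many genes of fatty acid synthesis, was at 80.8, 78.5, 83.1 and 81.1 CPM in IMF1 to IMF4 and at 73.3, 87.6, 93.4 and 92.7 CPM in SF1 to SF4. These values overlapped, and the interval of its log2 fold change ran from −0.30 to 0.10 (adjusted p = 0.442). *ELOVL1*, which elongates saturated acyl-CoA, was slightly lower in every IMF clone than in any SF clone (log2 −0.10, adjusted p = 0.290), and its span overlaps that of another protein-coding gene by 14848 bases.

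**Figure D3:**
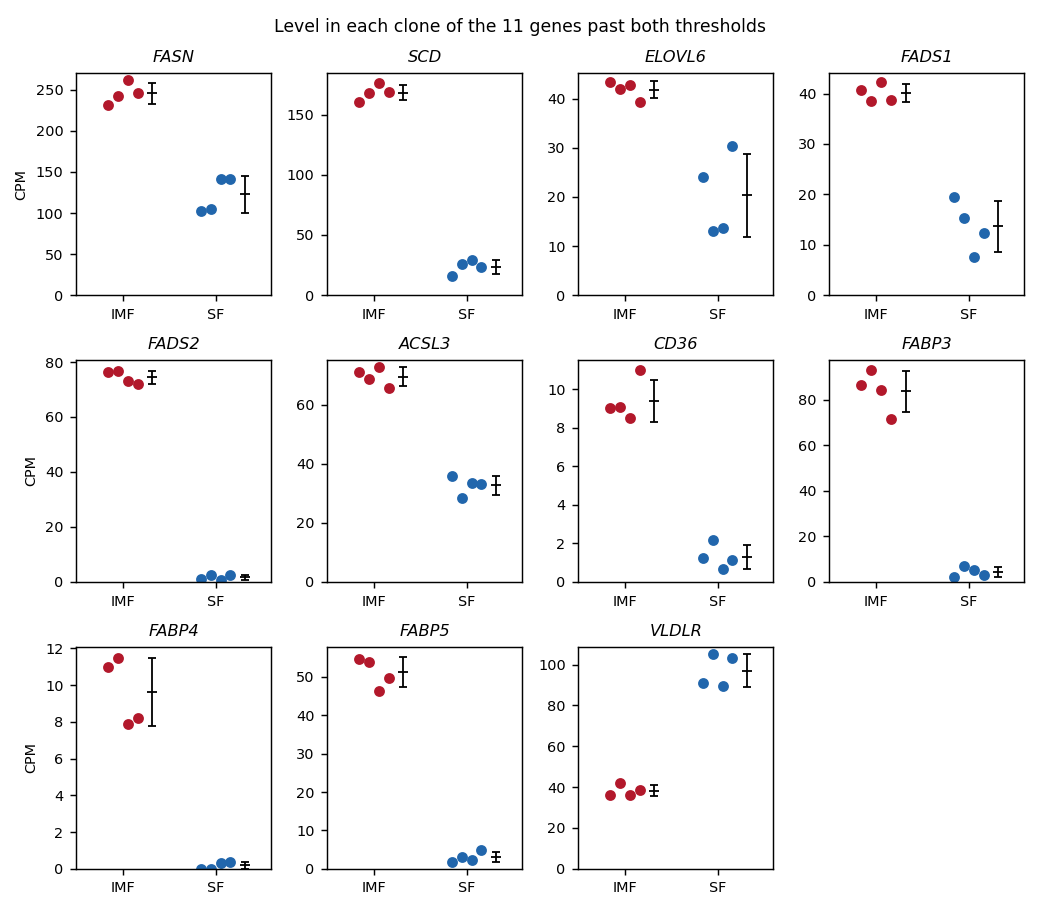
Level (CPM, vertical axes starting at 0) in each IMF and SF clone of the 11 lipid genes past both thresholds, 1 panel per gene, with the group mean and SD. No panel shows an overlap of the groups, and *VLDLR* (36.1 to 41.9 against 89.3 to 105 CPM) is the gene in which the SF clones are higher.

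Of the 6 genes of uptake and binding, 4 were higher and 1 was lower in the IMF clones past both thresholds (against 4.78% and 4.04% of all genes). The 4 higher genes were *CD36* and the 3 fatty acid-binding proteins. *FABP3*, the heart-type fatty acid-binding protein (chromosome 2, 122287099 to 122294639), was at 86.6, 92.9, 84.2 and 71.5 CPM in IMF1 to IMF4 and at 2.10, 6.86, 5.07 and 3.03 CPM in SF1 to SF4. The groups lay far apart, at a 19.5-fold difference (log2 4.29, SE 0.34, adjusted p = 7.72e-05). By length-scaled level it ranked 1 of the 45 genes in the IMF clones, at 205 ± 27.7 TPM, and 25 in the SF clones, at 10.6 ± 6.01 TPM.

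*FABP5*, the epidermal-type fatty acid-binding protein (chromosome 14, 44488912 to 44494877), was at 54.7, 54.0, 46.4 and 49.7 CPM in IMF1 to IMF4 and at 1.75, 3.00, 2.39 and 4.96 CPM in SF1 to SF4. It was 17.0-fold higher in the IMF clones (log2 4.09, SE 0.28, adjusted p = 3.79e-05). *FABP4*, the adipocyte-type fatty acid-binding protein and a common marker of adipocyte differentiation (chromosome 14, 44676559 to 44680947), was at 10.99, 11.5, 7.89 and 8.19 CPM in IMF1 to IMF4. Its counts were 229, 351, 174 and 172 in these clones and 0, 0, 8 and 7 in SF1 to SF4. It was thus without a count in SF1 and SF2, where 3 counts correspond to 0.154 and 0.1502 CPM, and low in the other SF clones. The fitted log2 fold change of 5.70 (SE 0.71, 95% interval 4.07 to 7.32, adjusted p = 0.000787) depends on these few SF counts.

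Of the length-scaled level summed over the 3 fatty acid-binding protein genes, *FABP3* made up 73.8% ± 1.89 in IMF and 74.8% ± 12.5 in SF clones, and *FABP5* 17.0% ± 1.37 and 21.8% ± 9.92. *FABP4* made up 9.24% ± 1.05 in IMF clones and 0, 0, 5.62 and 7.94% in SF1 to SF4, where its few counts limit the precision. SF4 had the lowest *FABP3* share, 57.0%, and the highest *FABP5* share, 35.0%.

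**Figure D4:**
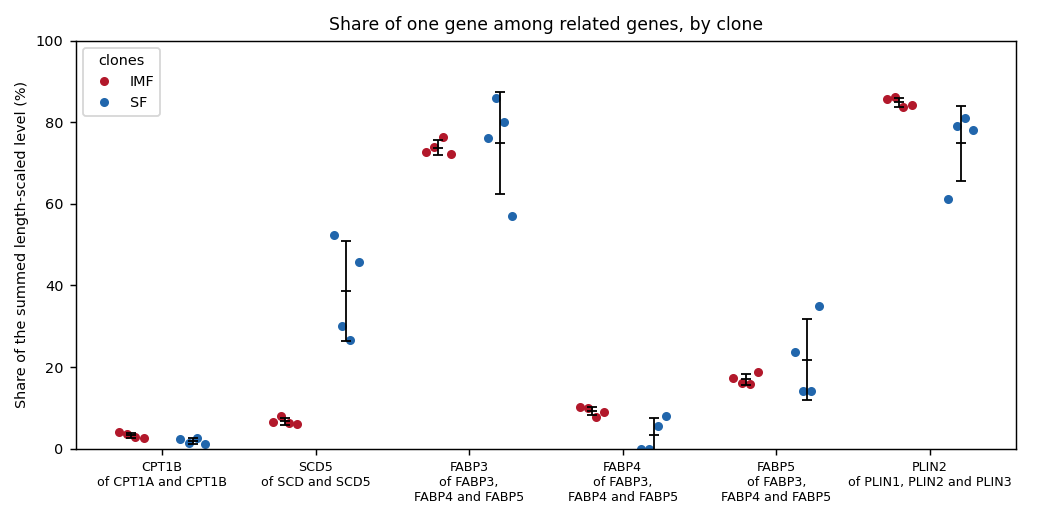
Share (%) of 1 gene in the length-scaled level summed over related genes, 1 point per IMF or SF clone. The *SCD5* share is 6.05 to 7.99% in IMF and 26.6 to 52.3% in SF clones, whereas the *FABP3* shares overlap.

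*CD36*, a membrane receptor that promotes uptake of long-chain fatty acids (chromosome 4, 40380301 to 40474070), was at 9.02, 9.06, 8.52 and 10.99 CPM in IMF1 to IMF4 and at 1.23, 2.15, 0.649 and 1.16 CPM in SF1 to SF4. The difference was 7.25-fold (log2 2.86, SE 0.32, adjusted p = 0.000492), but the length-scaled level was low in both groups, at 2.31 and 0.320 TPM. *VLDLR*, the very low density lipoprotein receptor, which binds triglyceride-rich lipoproteins (chromosome 8, 41824592 to 41860421), was at 36.3, 41.9, 36.1 and 38.6 CPM in IMF1 to IMF4 and at 90.8, 105, 89.3 and 103 CPM in SF1 to SF4. It was the lipid gene past both thresholds in the opposite direction, 2.54-fold higher in the SF clones (log2 −1.34, SE 0.09, adjusted p = 2.68e-05). *SLC27A1*, a fatty acid transport protein, was 9.55 ± 0.655 CPM in IMF and 11.7 ± 0.881 CPM in SF clones without overlap, and did not pass the test (log2 −0.30, adjusted p = 0.0556). Its adjusted p was under the threshold in 5 of 15 alternative fits, at 0.0201 by DESeq2, 0.0460 by limma-voom, 0.0457 with no filter, 0.0388 with at least 10 counts in 4 clones and 0.0451 without SF4.

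Some of the higher genes are also known from other cell types, *FABP3* from muscle and *CD36*, *FABP4* and *FABP5* from capillary endothelium, and markers of both cell types moved with the groups. Of 22 skeletal muscle markers tested, 21 (95.5%) were higher in the IMF clones past both thresholds, against 4.78% of all genes. The summed level of the 22 was 1171 to 1340 CPM against 4.71 to 36.7 CPM in the SF clones. In every SF clone *MYOD1*, *MYOG*, *MYMX*, *MYL1*, *CKM*, *TNNC1* and *CHRNA1* were at 0 counts, and the most abundant markers were *ITGA7* (268 ± 8.72 against 2.81 ± 4.07 CPM) and *ACTC1* (172 ± 13.4 against 0.140 ± 0.219 CPM). Of 18 endothelial markers tested, 17 (94.4%) were higher in the IMF clones past both thresholds, against the same 4.78% of all genes. The summed level of the 18 was 447 to 501 CPM against 30.4 to 40.7 CPM in the SF clones. *KDR*, *EMCN*, *SOX18*, *SELE* and *CD93* were at 0 counts in every SF clone, and the most abundant were *SELP* (148 ± 4.30 against 0.0128 ± 0.0257 CPM) and *CDH5* (53.9 ± 2.88 against 0.174 ± 0.0463 CPM). The part of these cell type programs in the levels of the fatty acid-binding proteins and *CD36* was not tested.

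Of the 4 long-chain acyl-CoA synthetases, which activate fatty acids, *ACSL3*, a form found on the endoplasmic reticulum and nascent droplets, was past both thresholds. It was at 70.9, 68.5, 72.8 and 65.4 CPM in IMF1 to IMF4 and at 35.8, 28.3, 33.4 and 33.2 CPM in SF1 to SF4. The clones of each group lay close together, 2.12-fold apart (log2 1.09, SE 0.08, adjusted p = 7.37e-05). *ACSL4*, which prefers arachidonate and had the highest length-scaled level of the step (35.6 and 25.5 TPM), was at 116, 123, 118 and 113 CPM in IMF1 to IMF4 and at 51.4, 90.2, 100.03 and 97.9 CPM in SF1 to SF4. The groups did not overlap, but SF1 was far below the other SF clones. Its log2 fold change of 0.47 did not pass the test (adjusted p = 0.111), and was 0.29 without SF1, where it passed (adjusted p = 0.0155), as it did with total counts alone (log2 0.62, adjusted p = 0.0486). *ACSL5*, found on mitochondria and the endoplasmic reticulum, was separated as well (43.9 ± 2.97 against 27.9 ± 10.9 CPM, adjusted p = 0.103), and *ACSL1*, the main form of adipocytes, overlapped (47.0 ± 2.20 against 37.4 ± 13.8 CPM, adjusted p = 0.347).

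None of the 7 esterification genes passed either threshold by edgeR with TMM scaling and all clones, where 1 had an unadjusted p under 0.05. DESeq2 counted 1 (*LPIN1*) and limma-voom 0 at adjusted p alone. These enzymes acylate glycerol phosphate and its products and remove the phosphate on the way to triglyceride, and their log2 fold changes ran from −0.14 to 0.60. *DGAT1* and *DGAT2*, which catalyse the last step to triglyceride, gave −0.12 (95% interval −0.31 to 0.07, adjusted p = 0.335) and −0.14 (−0.73 to 0.46, adjusted p = 0.746). *DGAT2* was at 89.3, 60.3, 64.6 and 109 CPM in IMF1 to IMF4 and at 72.5, 68.6, 82.1 and 132 CPM in SF1 to SF4, so it varied as much within as between the groups, and clone 4 of each depot was the highest. *AGPAT3*, an acyltransferase of lysophosphatidate and the gene of this step with the highest length-scaled level (25.9 and 23.1 TPM), was 22.1 ± 1.32 CPM in IMF and 19.95 ± 3.97 CPM in SF clones (adjusted p = 0.467).

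*AGPAT2*, the acyltransferase whose loss causes lipodystrophy in humans, was even in the IMF clones at 11.9, 13.7, 12.4 and 12.3 CPM and uneven in the SF clones at 15.3, 3.80, 8.81 and 5.23 CPM. SF1 lay above all IMF clones and the other SF clones below them. Its log2 fold change was 0.60 (95% interval −0.26 to 1.47, adjusted p = 0.289), and without SF1 it was past both thresholds (log2 1.08, adjusted p = 0.0207). *GPAM*, which starts the route, was 11.4 ± 1.27 and 12.4 ± 0.490 CPM (adjusted p = 0.389), and the phosphatidate phosphatase *LPIN2* 53.8 ± 4.78 and 55.6 ± 14.4 CPM (adjusted p = 0.872). The related phosphatase *LPIN1* was 6.73 ± 0.477 and 5.15 ± 0.657 CPM, without overlap (adjusted p = 0.0699), and passed by adjusted p with DESeq2 (0.0366), with total counts alone (0.0461) and without SF1 (0.0279).

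Of the 5 genes of the droplet coat and assembly, none passed both thresholds by edgeR with TMM scaling and all clones, also not at an unadjusted p under 0.05 with the same fold threshold, nor by DESeq2. *PLIN2* passed both by limma-voom and, in edgeR, with total counts alone and without SF2 or SF3. By adjusted p alone, 1 was higher and 1 lower in the IMF clones (against 14.4% and 11.4% of all genes). *PLIN2*, the perilipin that coats droplets in most cell types, was at 165, 173, 154 and 147 CPM in IMF1 to IMF4 and at 42.9, 101, 107 and 79.4 CPM in SF1 to SF4. Every IMF clone was higher than every SF clone, SF1 was the lowest, and the difference was 1.94-fold (log2 0.95, SE 0.25, adjusted p = 0.0249). Without IMF1, IMF2, IMF3 or SF4, in turn, its adjusted p was 0.0553, 0.0622, 0.0571 and 0.0604. It had the second highest length-scaled level of the lipid genes in both groups, 108 ± 10.4 TPM in IMF and 55.6 ± 22.4 TPM in SF clones.

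*BSCL2*, seipin, which helps to form nascent droplets, was lower in the IMF clones, at 19.8, 20.5, 20.9 and 21.1 CPM against 24.5, 30.2, 35.6 and 24.0 CPM in SF1 to SF4. The groups did not overlap, and SF was 1.39-fold higher (log2 −0.47, SE 0.13, adjusted p = 0.0277). The adjusted p was 0.168 with total counts alone, 0.0685, 0.0565, 0.0559 and 0.0592 without IMF1 to IMF4 in turn, and 0.0623 without SF2. The annotated span of *BSCL2* shares 2614 bases with that of *GNG3*. *PLIN1*, the perilipin of mature adipocytes, was low in both groups, with 2.84 ± 0.165 CPM in IMF against 3.62 ± 0.212 CPM in SF clones, without overlap (adjusted p = 0.119). *PLIN3*, a perilipin that moves between cytosol and droplets, was 34.7 ± 1.42 and 29.9 ± 2.87 CPM (adjusted p = 0.0943). *CIDEC*, a droplet fusion protein of mature adipocytes, had 4, 0, 13 and 29 counts in IMF1 to IMF4 and 8, 0, 3 and 22 in SF1 to SF4, so the clones of each group spread from 0 to over 20 counts and no difference was detectable against that spread (log2 0.31, 95% interval −2.83 to 3.45, adjusted p = 0.899).

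Of the 3 lipolysis genes, none passed either threshold by edgeR, DESeq2 or limma-voom, and none had an unadjusted p under 0.05 in edgeR. *PNPLA2*, adipose triglyceride lipase, was at 14.5, 13.5, 13.1 and 13.7 CPM in IMF1 to IMF4 and at 23.5, 15.3, 15.8 and 13.9 CPM in SF1 to SF4. SF1 was the highest, and the other SF clones lay within or close to the IMF range (log2 −0.32, 95% interval −0.69 to 0.04, adjusted p = 0.180). *LIPE*, hormone-sensitive lipase, had the same high clone, at 7.65 CPM in SF1 and between 3.65 and 6.01 CPM in the other 7 clones (log2 −0.48, adjusted p = 0.142). *ABHD5*, the co-activator of *PNPLA2*, was 3.03 ± 0.551 CPM in IMF and 3.24 ± 0.670 CPM in SF clones (adjusted p = 0.791).

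Of the 8 oxidation genes, 3 were higher in the IMF clones by adjusted p (against 14.4% of all genes) and none by 2-fold or more. The count past both thresholds was 0 also at an unadjusted p under 0.05, and by DESeq2 and limma-voom. *HADHB*, a subunit of the mitochondrial trifunctional protein, was at 86.4, 88.4, 85.0 and 78.5 CPM in IMF1 to IMF4 and at 52.9, 58.5, 57.0 and 49.2 CPM in SF1 to SF4, a 1.55-fold difference (log2 0.64, SE 0.08, adjusted p = 0.000705). *HADHA*, the other subunit and its neighbour on chromosome 11, was at 88.1, 90.0, 78.9 and 77.8 CPM in IMF1 to IMF4 and at 67.3, 74.4, 66.2 and 65.5 CPM in SF1 to SF4. Its groups were also separated but closer, 1.22-fold apart (log2 0.29, SE 0.08, adjusted p = 0.0270), and its adjusted p was 0.0762, 0.0977, 0.0503, 0.0687 and 0.0627 without IMF1, IMF2, IMF3, SF3 or SF4. *ACADM*, medium-chain acyl-CoA dehydrogenase, was 17.5 ± 0.345 CPM in IMF and 13.7 ± 0.746 CPM in SF clones, 1.28-fold higher (log2 0.35, SE 0.07, adjusted p = 0.00788).

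None of the carnitine palmitoyltransferase genes, the gate of beta-oxidation, passed the test by edgeR with TMM scaling and all clones, but *CPT1B* and *CPT2* each passed by adjusted p in 4 of 15 alternative fits. *CPT1A*, the carnitine palmitoyltransferase of liver and many other cells, was 144 ± 3.45 CPM in IMF and 138 ± 26.0 CPM in SF clones, with SF1 lowest at 102 CPM (log2 0.06, 95% interval −0.25 to 0.37, adjusted p = 0.789). *CPT1B*, the muscle form, was low at 3.65, 3.30, 2.67 and 2.38 CPM in IMF1 to IMF4 and 1.49, 1.15, 2.48 and 1.27 CPM in SF1 to SF4, where SF3 lay within the IMF range (log2 0.90, adjusted p = 0.0548). Its adjusted p was 0.0178 by DESeq2 and 0.0472 by limma-voom, and it was past both thresholds with total counts alone (log2 1.04, adjusted p = 0.0414) and without SF3 (log2 1.17, adjusted p = 0.0138). It made up 3.26% ± 0.60 of the length-scaled sum of both genes in IMF and 1.88% ± 0.73 in SF clones. *CPT2*, which acts at the inner membrane, was 43.6 ± 2.02 and 31.6 ± 7.78 CPM without overlap (adjusted p = 0.0743), and its adjusted p was 0.0404 by DESeq2, 0.0415 with total counts alone, 0.0447 without SF1 and 0.0232 without SF2. *ACADVL*, very long-chain acyl-CoA dehydrogenase and the oxidation gene with the highest length-scaled level (81.1 and 74.2 TPM), was 109 ± 5.66 and 101 ± 8.37 CPM (adjusted p = 0.348), and *ACADL*, its long-chain relative, 4.65 ± 0.236 and 4.33 ± 1.70 CPM (adjusted p = 0.811).

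**Figure D5:**
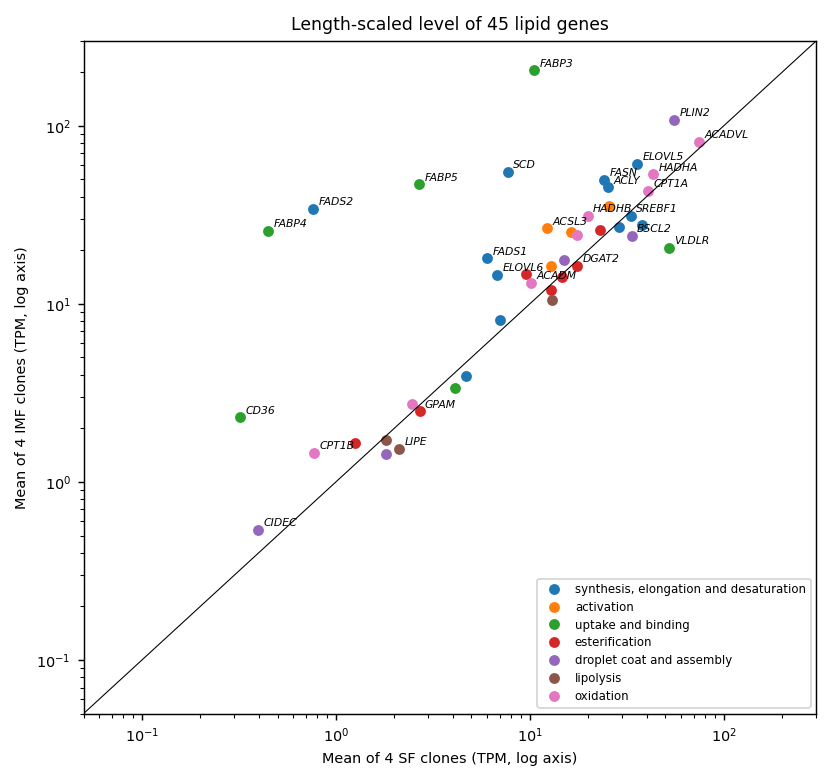
Mean length-scaled level (TPM, log axes) of the 45 lipid genes in the 4 SF clones (horizontal) and the 4 IMF clones (vertical), coloured by step, with the line of equal levels. *FABP3* (205 TPM in IMF, 10.6 in SF), *FADS2* (34.2 and 0.766) and *FABP4* (25.7 and 0.448) lie far above the line and *VLDLR* (20.7 and 52.0) below it.

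The order of the lipid genes by length-scaled level also differed between the depots. In the IMF clones *FABP3*, *PLIN2* and *ACADVL* ranked 1 to 3, and in the SF clones *ACADVL*, *PLIN2* and *VLDLR* did, where *VLDLR* ranked 23 in the IMF clones. *SCD* ranked 5 in IMF and 28 in SF clones, *FABP5* 8 and 35, and *FADS2* 12 and 42.

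The IMF clones were more alike than the SF clones in these genes. The coefficient of variation between clones was lower in the IMF group for 43 of the 45 genes, with a median of 5.17% against 24.7% in the SF group, where all genes with a mean of at least 1 CPM had medians of 8.45% and 17.0%. The 45 genes were not put through that 1 CPM filter, and few SF counts, as in *FABP4* and *FADS2*, add counting error. How often the IMF group had the lower coefficient among all genes is not given here. Among the SF clones, SF1 was the lowest in 17 genes, including *SCD*, *FASN*, *PLIN2*, *CPT1A*, *CPT2* and all but *ACSL3* of the acyl-CoA synthetases, and the highest in 12, including *PNPLA2*, *LIPE*, *AGPAT2* and *FADS1*. Among the IMF clones, IMF4 was the lowest in 19 genes and IMF2 the highest in 17. SF1 had 20482958 counts, within the range of the SF clones of 19979899 to 24868233.

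Of 120 further genes of the same 7 steps, 104 were tested. Past both thresholds, 6 (5.77%) were higher and 4 (3.85%) lower, close to the 4.78% and 4.04% of all genes tested. By adjusted p alone 18 (17.3%) were higher and 20 (19.2%) lower, against 14.4% and 11.4% of all genes. The median log2 fold change of the 104 genes was 0.09. The split depended on the scaling, since total counts alone gave 24 higher and 12 lower by adjusted p. *ACSS2*, which makes acetyl-CoA from acetate, the main lipogenic carbon source of ruminants, was at 13.6, 12.9, 13.3 and 13.6 CPM in IMF1 to IMF4 and at 0.616, 2.80, 1.22 and 1.43 CPM in SF1 to SF4, 8.78-fold higher without overlap (log2 3.13, adjusted p = 0.000644). *PDK4*, which restrains pyruvate oxidation, was 4.83-fold higher (7.32 ± 0.953 against 1.51 ± 0.301 CPM, adjusted p = 0.000126). *FABP7*, the brain-type fatty acid-binding protein, was 4.31-fold higher (4.96 ± 0.699 against 1.15 ± 1.03 CPM, adjusted p = 0.0204), but its adjusted p was 0.0523, 0.0527, 0.0517 and 0.0542 without IMF2, IMF3, SF2 or SF3.

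In the opposite direction, *ELOVL7*, an elongase of saturated acyl-CoA, was at 6.57, 5.62, 6.39 and 5.57 CPM in IMF1 to IMF4 and at 19.8, 34.9, 64.7 and 49.9 CPM in SF1 to SF4. It was 7.01-fold higher in the SF clones, which varied more than 3-fold among themselves (log2 −2.81, adjusted p = 0.000635). *MLXIPL*, which encodes a glucose-responsive activator of lipogenic genes, was 2.64-fold higher in SF (2.72 ± 0.647 against 7.19 ± 2.20 CPM, adjusted p = 0.00587). *LRP1*, a large lipoprotein receptor of the family of *VLDLR*, was 2.36-fold higher in SF (2241 ± 119 against 5295 ± 653 CPM, adjusted p = 0.000281).

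A list of genes of sterol synthesis and of its control by sterol regulatory element-binding proteins (SREBPs), which also act on genes of fatty acid synthesis, was examined as well. Of 27 tested, 17 (63.0%) were higher past both thresholds, against 4.78% of all genes. By adjusted p alone 21 (77.8%) were higher, against 14.4% of all genes. Lower by adjusted p were 2 (7.41%, *INSIG2* and *MBTPS2*, both of the SREBP control machinery), against 11.4% of all genes. The median log2 fold change was 1.13. *IDI1*, an isomerase of the isoprenoid route, was 61.6 ± 3.54 CPM in IMF and 7.84 ± 1.55 CPM in SF clones (log2 2.97, adjusted p = 6.51e-06), *HMGCS1*, which makes hydroxymethylglutaryl-CoA, 142 ± 6.54 and 26.6 ± 8.13 CPM (log2 2.42, adjusted p = 8.81e-05), and *FDFT1*, squalene synthase, 65.6 ± 3.52 and 14.0 ± 3.07 CPM (log2 2.23, adjusted p = 3.93e-05). *SREBF2*, the family member tied most closely to sterol synthesis, was 185 ± 4.65 and 104 ± 16.1 CPM (log2 0.82, adjusted p = 0.00121), named here beside *SREBF1* after its values were seen. Whether these genes and the desaturases moved for the same reason was not tested.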

How the data were processed

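RNA-seq of 4 IMF and 4 SF preadipocyte clones was analysed. Clones were grouped by the sample labels. The authors deposited raw read counts per gene and clone, without normalization. Per the study's methods, trimmed reads were mapped by HISAT2 onto ARS-UCD2.0 and assigned to genes by FeatureCounts, whereas the submitters' processing notes list Trimmomatic 0.39, STAR 2.7.11a, featureCounts 2.0.2 and DESeq2 1.42.0. The methods name a non-stranded kit and the labels a dUTP step, so how reads of overlapping genes were assigned is uncertain. How reads with several matches were counted is not given in the sources used here. The methods also speak of TPM, but the deposited values are whole numbers with unequal totals. The deposited gene length in bases, also by the authors, was used for TPM. The table's 9 other columns of values hold group means and the authors' own comparison and were not used.

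The test was run in R 4.3.3 with edgeR 4.0.16 (TMM, two-sided quasi-likelihood test, group as the only term), with Benjamini-Hochberg adjustment over the 18339 of 18871 named genes with at least 20 counts in total. The methods state the same filter, but 532 genes under 20 counts are in the table. The 1 row naming no gene held 0.0148 to 0.0209% of counts and was left out. A gene was past both thresholds when its adjusted p was below 0.05 and its log2 fold change was 1 or more in either direction. CPM used TMM-scaled library sizes. Standard errors and 95% intervals came from the same fit, and counting floors of 3 counts cover counting error only. The test was tried on simulated counts.

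Named were all lipid genes past either threshold or not found, the one with the highest mean TPM in each step, up to 3 genes in each direction with the largest change past both thresholds and at least 1 CPM in the higher group of the other pathway and sterol lists, and the 2 with the highest mean of each cell type list. Other lipid genes were described beside them. *PPARG*, *THY1*, *PDGFRA*, *CD14*, *INSIG2*, *MBTPS2* and *SREBF2* were named after their values were seen. The genes and lists were chosen with earlier results of these data known. Coordinates were those of RefSeq ARS-UCD2.0. Alternatives were DESeq2 1.42.0, limma-voom (limma 3.58.1), RLE size factors, total counts alone, no filter, at least 10 counts in 4 clones, the clone number as a block, leaving out each clone, and shares without length scaling.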

Additional observations from a re-analysis of the deposited data

Results flagged for a closer look

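In 2 of 90 groups of 4 clones (2.22%), where chance gives about 1 in 20, a lipid gene had 1 clone far from the other 3 relative to the group's range. *ACADL*, long-chain acyl-CoA dehydrogenase, was at 5.00 CPM in IMF2 and between 4.51 and 4.58 CPM in the other IMF clones. *ACADVL*, very long-chain acyl-CoA dehydrogenase, was at 117 CPM in IMF1 and between 106 and 107 CPM in the other IMF clones. Neither gene passed the test between the depots.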

How the results depend on the processing

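Over 15 alternative fits, 8 to 12 lipid genes were higher and 1 was lower past both thresholds, and 13 to 21 were higher and 1 to 3 lower by adjusted p alone. The value of 1 lower by adjusted p came from total counts alone and from leaving out single clones (range 1 to 3), where *BSCL2* was lost. Of the genes past both thresholds, *FASN* was lost in 8 fits, each by the fold threshold, and *ELOVL6* in 3, without SF2 and SF3 by the fold threshold and without IMF3 by adjusted p, and *CD36*, *FABP3*, *FABP4*, *FABP5*, *SCD*, *FADS1*, *FADS2*, *ACSL3* and *VLDLR* in none. For the lipid genes named by the rule, 312 comparisons with an alternative kept their direction and their side of the adjusted p threshold of 0.05, 16 lost the call by adjusted p, 2 (*ACSL4*) gained it and 0 reversed. *PLIN2*, called by adjusted p alone, was past both thresholds by limma-voom, with the block, with total counts alone and without SF2 or SF3.

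Of the step medians, esterification was 0.086 with total counts alone and −0.074 to 0.098 when a clone was left out. Droplet coat and assembly was −0.10 with at least 10 counts in 4 clones (which removes *CIDEC*), −0.041 by limma-voom and −0.36 to 0.25 when a clone was left out, so its sign is not stable. Oxidation was 0.47 with total counts alone. Activation was 0.37 to 0.70 and lipolysis −0.41 to −0.20 when a clone was left out. Over all genes, those lower by adjusted p numbered 1189 with total counts alone, and those higher 1745 to 2844 when a clone was left out. Of the other pathway genes, 12 were lower by adjusted p with total counts alone, and 11 to 21 were higher when a clone was left out. Stromal markers past both thresholds and lower numbered 1 by limma-voom, with the block and with total counts alone, and 1 to 2 when a clone was left out, where 0 to 1 were higher. Leukocyte genes lower past both thresholds numbered 4 by DESeq2, by limma-voom and with the block and 0 to 5 when a clone was left out, where 1 to 2 were higher. The cause of these shifts was not tested.

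Without length scaling, the share of *SCD5* was 3.49% in IMF and 24.7% in SF clones, that of *FABP3* 57.9 and 56.4%, that of *FABP5* 35.5 and 41.4%, that of *FABP4* 6.62 and 2.19%, that of *CPT1B* 2.04 and 1.17% and that of *PLIN2* among *PLIN1* to *PLIN3* 80.9 and 69.4%.

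Clones of the 2 groups share numbers, but the correlations of same-numbered clones' deviations from the group means were −0.0093 to 0.139 (4 pairs), so the numbers were not taken to pair them, and not every clone correlated best with its own number. With the clone number as a block, 11 lipid genes were higher and 1 lower past both thresholds, *PLIN2* being added (adjusted p = 0.0395), and the 18 called by adjusted p alone were the same genes. The leukocyte gene *PTPRC* passed as well (adjusted p = 0.0263), and the stromal marker *THY1* lost its call (adjusted p = 0.0563).

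Few counts limit *FABP4* in the SF clones, and *CIDEC* varied widely between the clones of both groups. The clones of a depot came from separate SVF samples, but which clones of the 2 depots share an animal is not stated.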
